A study of Mus musculus with 47 samples.

Results

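The genes described here encode subunits of the mitochondrial oxidative phosphorylation complexes. They were taken from the deposited expression table by symbol (Ndufa, Ndufb, Ndufc, Ndufs and Ndufv followed by digits alone, Sdha to Sdhd, symbols starting with Uqcr, Cyc1, Cox4 to Cox8 and Atp5) and kept where the mean over all 47 libraries was at least 1 RPKM, a read count scaled by transcript length and library size. The symbols matched 87 of 22632 genes, 7 fell below the mean, and 80 were kept: 36 of complex I, 4 of complex II, 9 of complex III, 14 of complex IV and 17 of complex V. Just above the threshold lay Ndufa12 (1.02 RPKM), Atp5l (1.06 RPKM) and Atp5g2 (1.18 RPKM), and just below it Cox4i2 (0.861 RPKM), Cox7b2 (0.750 RPKM) and Ndufb4 (0.477 RPKM). By assigned role 77 of the 80 are counted as subunits, including Cox7a2l, a supercomplex factor, and the readthrough entry Gm20538 explained below. The other 3 carry matching symbols only: Cox4nb belongs to a complex of the endoplasmic reticulum, and Atp5s and Atp5sl are accessory or assembly factors. Genes were assigned to complexes by symbol, so Ndufa4, now placed in complex IV, is counted with complex I. The symbol Ndufb8 stands in 2 places in the table, and its second entry, which carries the identifier of the readthrough locus Gm20538, is called Gm20538 here.

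The respiratory chain sits in the inner mitochondrial membrane. Complex I (NADH dehydrogenase) and complex II (succinate dehydrogenase) feed electrons to ubiquinone, complex III passes them to cytochrome c, complex IV (cytochrome c oxidase) gives them to oxygen, and complex V (ATP synthase) uses the resulting proton gradient to make ATP. Complexes I, III, IV and V hold subunits from both the nuclear and the mitochondrial genome, while complex II is wholly nuclear, and several complex IV subunits exist as paired isoforms used by different tissues. Reprogramming of fibroblasts to pluripotency is known for a move from respiration toward glycolysis.

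The study sequenced mRNA from mouse cells during reprogramming. Secondary mouse embryonic fibroblasts, in which doxycycline switches reprogramming on, gave 4 clones of a class named SC and 4 of a class named SI in the labels, which spell out neither name nor any genotype or promoter. Each class was sampled after 14 days of doxycycline (d14), after 21 days (d21), after 21 days and then 1 day (d22) or 2 days (d23) without it, and after 27 days with it (d27). The SC clones were also sampled after 21 days with and 6 days without doxycycline, as secondary iPS cells. There were 3 libraries of mouse embryonic fibroblasts titled feeder, with 0 days of doxycycline, and every other group had 4. A clone is 1 line followed through time, so p-values measure the spread between these 4 clones alone, and how far the 3 feeder libraries are separate cultures is not stated.

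Read totals are not part of the table, so the depth behind each value is unknown. Summed RPKM ran from 189172.4 to 245694.8 per library, and 10909 to 11931 genes had at least 1 RPKM. The cultures were mixed or changing to different degrees. The 10 fibroblast markers summed to a mean of 9746.8 RPKM in the feeder libraries, 2109.2 RPKM in the SI clones at d21 (1476.52 to 3693.6) and 8548.2 RPKM at d23 (6904.8 to 11621.97). Of the 8 pluripotency markers, all 8 were below 1 RPKM in every feeder library, and their sum at d23 was 149.8 to 1198.04 RPKM in SC and 0.69 to 22.9 RPKM in SI clones. The SC2 library stood apart at d23, with the lowest pluripotency sum of its group (149.8 RPKM) and the highest fibroblast sum (5958.45 RPKM). Counts of the subunit genes that rest on it are given with and without it, and counts of other gene lists are not. In bulk RNA, fewer cells of a type and less RNA per cell cannot be told apart.

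Most subunits were highly expressed in every group. Of the 80 genes, 69 averaged at least 5 RPKM. The highest mean in each complex was that of Ndufa4 (165 RPKM), a small subunit first assigned to complex I and now placed in complex IV, Sdhd (50.6 RPKM), a membrane anchor of complex II, Uqcrc1 (89.0 RPKM), a core protein of complex III, Cox4i1 (229.9 RPKM), the common form of complex IV subunit 4, and Atp5b (237 RPKM), the catalytic beta subunit of ATP synthase. The widest ranges of the 12 group means on the log2(RPKM + 1) scale were those of Cox7a1 (2.88) and Cox6b2 (2.49), the heart and skeletal muscle form and the testis form of their complex IV subunits. In complex I the widest ranges were those of Ndufs5 (1.8025), a small accessory subunit, and Ndufs1 (1.31), the largest iron-sulfur subunit. Uqcrc2 (1.14) and Cyc1 (0.97) led complex III, and Sdhc (0.55) and Sdhd (0.51) complex II. Among the genes grouped with complex V by symbol the ranges were widest for Atp5sl (1.43) and Atp5s (1.26), which are not subunits, followed by the subunit genes Atp5a1 (0.85) and Atp5g2 (0.83).

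**Figure D1:**
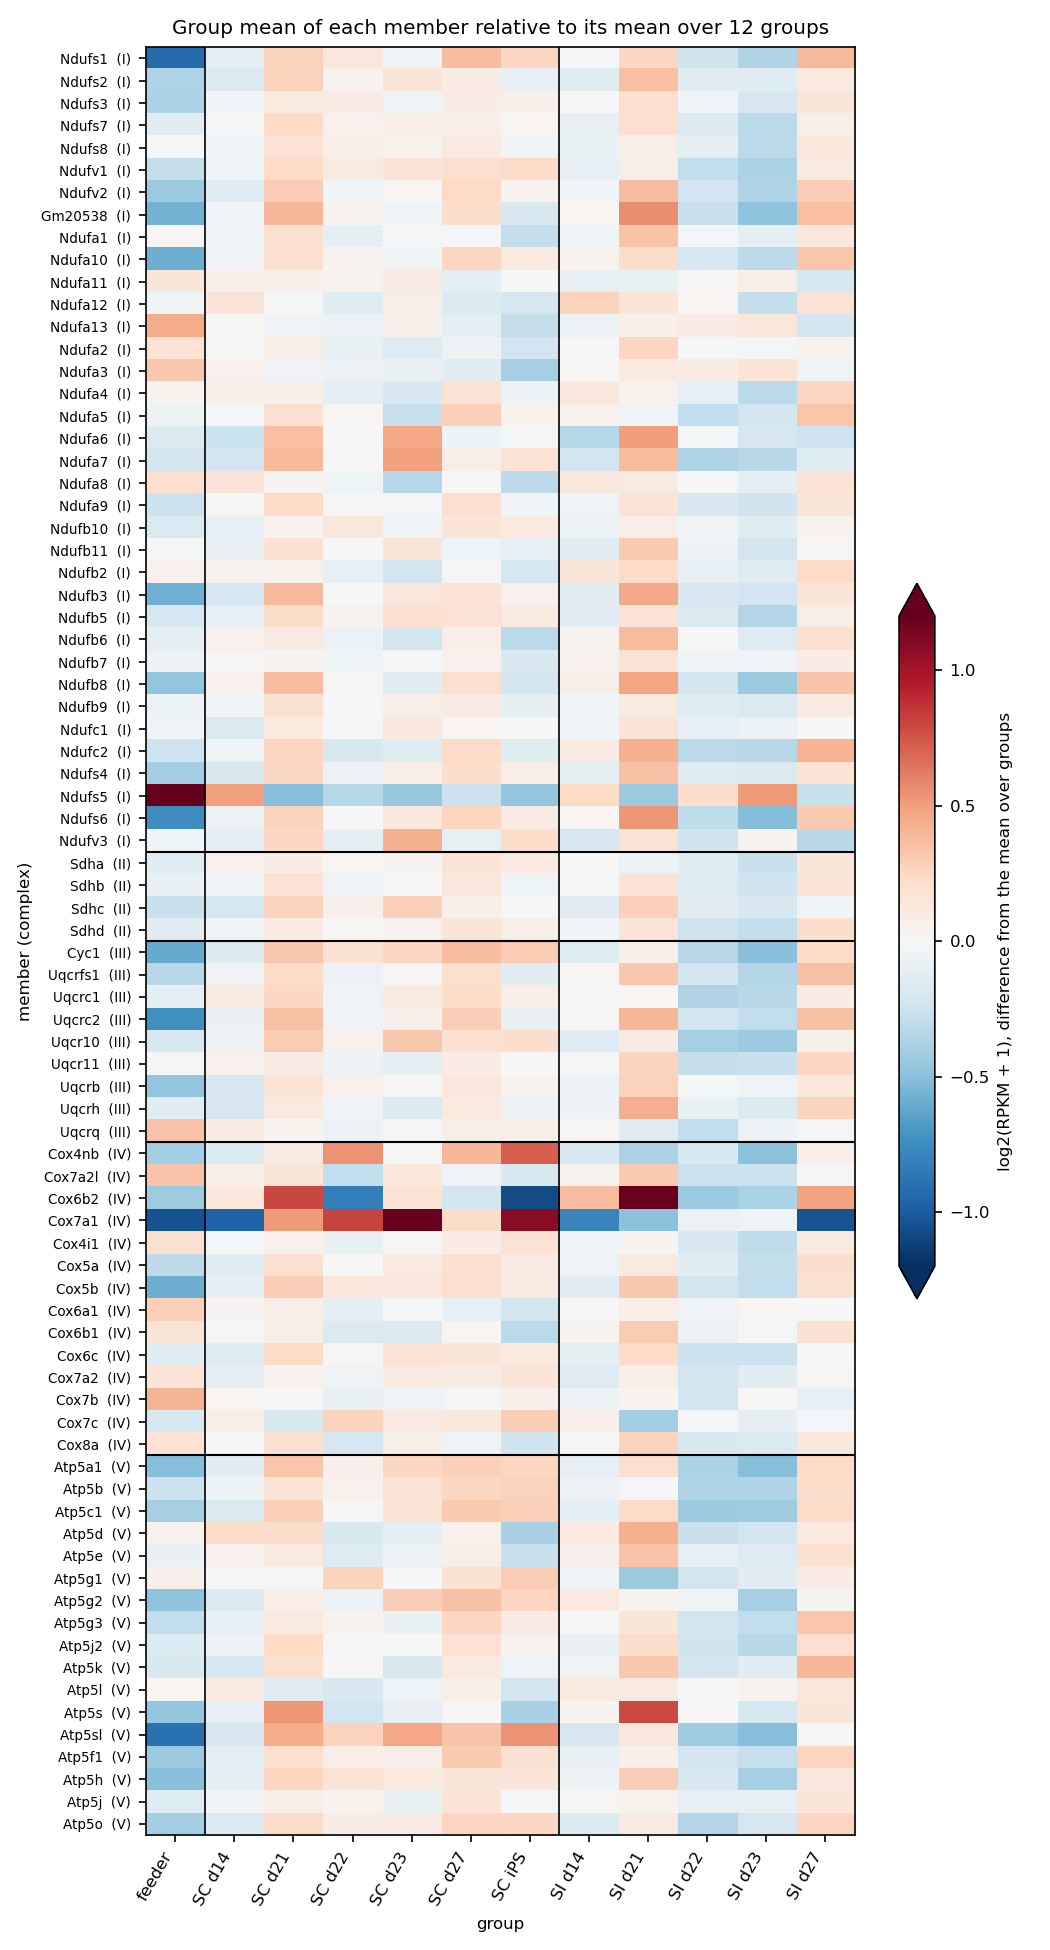
Each row is 1 of the 80 genes, ordered by complex, and each column 1 of the 12 groups. The colour gives the group mean of log2(RPKM + 1) minus the gene's mean over groups, and the feeder and SI d23 columns hold the lowest group mean of 27 and 20 genes.

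Averaged over the 80 genes, the level was lowest in the feeder libraries and in SI clones after withdrawal, and highest at d21. The mean of log2(RPKM + 1) was 4.58 ± 0.0072 (SD, n = 3) in feeder libraries. In SC clones it was 4.71 at d14, 4.94 at d21, 4.75 at d22, 4.82 at d23, 4.88 at d27 and 4.77 in iPS cells, with SDs between 0.0593 and 0.212 (n = 4). In SI clones it was 4.73 at d14, 4.95 at d21, 4.59 at d22, 4.54 at d23 and 4.88 at d27, with SDs between 0.0547 and 0.16 (n = 4). The SI means at d22 and d23 lay on either side of the feeder mean. When the 12 groups were put in order, no mean differed from its neighbour by more than the larger of the 2 SDs. The share of summed RPKM held by the 80 genes was 1.38% in feeder libraries, 1.88% in SC and 1.92% in SI clones at d21, and 1.77% in SC but 1.30% in SI clones at d23.

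The tissue forms of complex IV were mostly low, and 5 of them fell below the mean of 1 RPKM. Cox6a2 (mean 0.0970 RPKM), Cox8b (0.0062 RPKM) and Cox8c (0.0513 RPKM) stood beside common forms at 118 RPKM for Cox6a1 and 146 RPKM for Cox8a. Cox7b2 was at or below 0.10 RPKM in SI clones and 1.16, 0.32, 5.26 and 5.84 RPKM in SC clones 1 to 4 at d23. Cox4i2 was 1.95, 1.19, 4.76 and 4.9 RPKM in the same libraries, 1.34% ± 0.70 (SD, n = 4) of summed Cox4i1 and Cox4i2. Cox7a1 made up 1.13% of summed Cox7a1 and Cox7a2 in feeder libraries, 1.55% in SC clones at d14, 16.8% at d23 and 9.80% in iPS cells. In SI clones it was between 1.33% at d27 and 4.81% at d22. Cox6b2 made up 6.32% of summed Cox6b1 and Cox6b2 in feeder libraries, 15.3% in SC clones at d21, 6.01% at d22, 11.7% (8.06% to 14.1%) at d23, 8.37% at d27 and 5.50% in iPS cells. Of the 3 genes for the same c-ring protein of ATP synthase, Atp5g3 was at 78.7 RPKM on average, Atp5g1 at 2.46 RPKM and Atp5g2 at 1.18 RPKM.

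**Figure D2:**
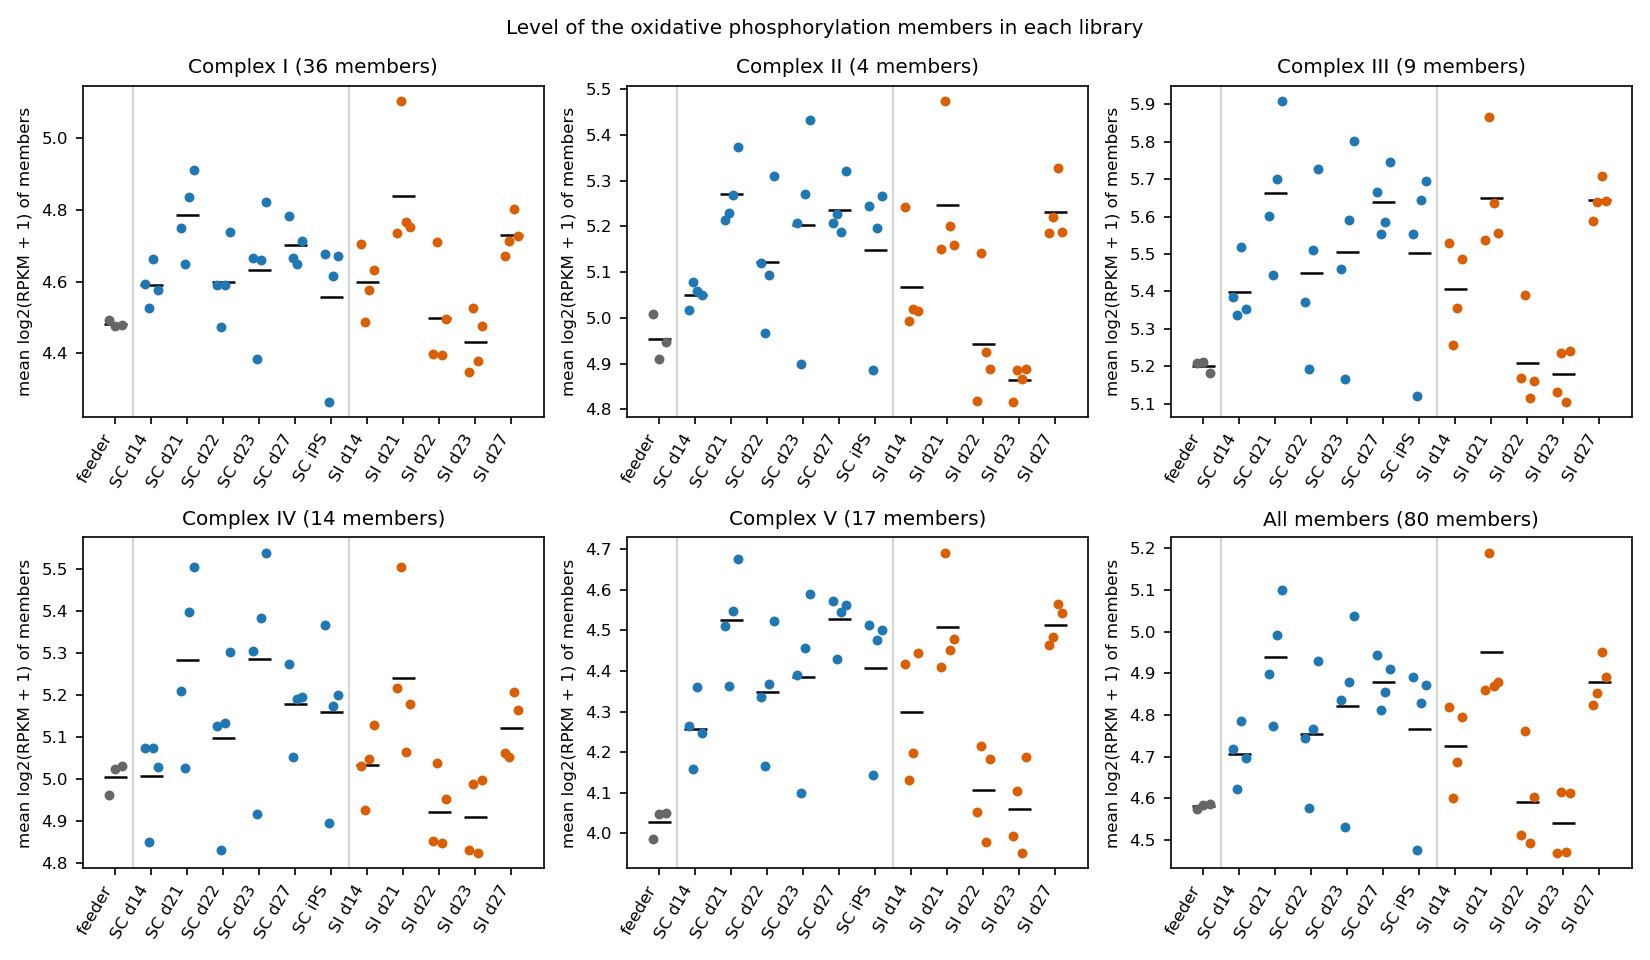
Each point is a library, placed by group and by its mean log2(RPKM + 1) over the genes of complex I, II, III, IV or V, and bars mark the group means. In the SI clones all 5 complexes were lower at d22 and d23 than at d21, and complex III went from a mean of 5.65 at d21 to 5.18 at d23.

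At d23 against d21 the mean level of each of the 5 complexes was lower in all 4 SI clones. In SC clones complexes I, III and V were lower in all 4 clones, while complexes II and IV were lower in 2 and higher in 2. Complex III had the highest mean level throughout, at 5.20 in feeder libraries, 5.66 in SC clones at d21, 5.51 in SC and 5.18 in SI clones at d23. Complex I went from 4.84 at d21 to 4.43 at d23 in SI clones and from 4.79 to 4.63 in SC clones. Complex II went from 5.25 to 4.86 in SI clones and from 5.27 to 5.20 in SC clones. Complex V went from 4.51 to 4.06 in SI clones and from 4.52 to 4.38 in SC clones. Complex IV showed the smallest change of the 5 in SI clones, from 5.24 to 4.91, and in SC clones it was 5.28 at d21 and 5.29 at d23. The SC level of complex IV rests in part on Cox7a1, which differed by 1.32 between these times. Most other complex IV genes were lower at d23, and a level without Cox7a1 is not given. Differences between complexes in the size of the change were not tested.

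RefSeq promoters (GRCm38.p6) were found for 66 of the 80 genes, and 4 short motifs of factors known for nuclear genes of mitochondrial proteins, plus the CCAAT box, were searched on both strands in the 250 bases before the start. The nuclear respiratory factor 1 motif CGCATGCG, which is its own reverse complement, stood in 7 of the 66 promoters (10.6%) and in 1.75% of all 27025 genes with a promoter in the table. These 7 genes were Ndufa8, Ndufa11, Cox6a1, Atp5g2, Atp5j, Atp5k and Atp5l. The estrogen-related receptor motif TCAAGGTCA stood in 1 promoter, that of Atp5g3 (1.52%, against 0.422% of all genes). The ETS motif CCGGAAGT stood in 3 (4.55%, against 3.23%), the YY1 motif AAGATGGC in 2 (3.03%, against 1.83%) and CCAAT in 29 (43.9%, against 37.5%). A match is a description of letters, not of binding. Windows around the first motif in 4 of its 7 genes, as examples, the window of Atp5g3, and the windows of Cox6b2 and Cox7a1, which vary most between groups and hold none of the 4 longer motifs, are shown 5′ to 3′ on the gene's strand, with every searched motif in capitals (CGCATGCG; TGACCTTGA, the reverse of the receptor motif; CCAAT or its reverse ATTGG).
Ndufa11, chr17:56717683-56717730, plus strand: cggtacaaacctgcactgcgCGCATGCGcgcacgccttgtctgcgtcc
Cox6a1, chr5:115349092-115349139, minus strand: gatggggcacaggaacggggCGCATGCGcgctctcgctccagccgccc
Atp5j, chr16:84835096-84835143, minus strand: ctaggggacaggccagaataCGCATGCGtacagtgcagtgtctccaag
Atp5k, chr5:108434421-108434468, minus strand: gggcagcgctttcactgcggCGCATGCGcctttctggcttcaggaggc
Atp5g3, chr2:73911350-73911398, minus strand: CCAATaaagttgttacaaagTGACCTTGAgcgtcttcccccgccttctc
Cox6b2, chr7:4753095-4753320, minus strand: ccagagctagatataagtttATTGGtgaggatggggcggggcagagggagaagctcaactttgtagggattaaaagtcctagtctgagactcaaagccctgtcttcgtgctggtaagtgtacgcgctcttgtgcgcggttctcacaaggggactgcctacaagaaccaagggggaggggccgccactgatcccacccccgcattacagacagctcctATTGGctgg
Cox7a1, chr7:30184014-30184121, plus strand: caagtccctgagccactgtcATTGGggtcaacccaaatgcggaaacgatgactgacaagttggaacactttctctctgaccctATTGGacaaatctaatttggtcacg

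The first question the design allows is what happened to these genes when doxycycline was withdrawn. In SI clones most of them fell. At d23 against d21, 55 of 79 tested genes were lower and 1 was higher (limma on log2(RPKM + 1), Benjamini-Hochberg adjusted p under 0.05 over all genes tested), against 32% of all genes tested that were lower and 22.7% that were higher. The median difference of the 79 was -0.45 on the log2 scale, beside -0.12 over all genes tested, and 64 of the 80 genes were lower at d23 than at d21 in every one of the 4 clones, with 3 higher in every clone. Counts by clone have no share of all genes beside them and cannot be read as a trait of these genes. In complex I 23 of 35 fell and 1 rose, in complex II 3 of 4 fell, in complex III 8 of 9, in complex IV 7 of 14 and in complex V 14 of 17. On this scale a fold change is understated for genes with low RPKM.

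By role, the calls covered all 7 core subunits of complex I in the list, which carry the flavin and iron-sulfur centres or line the route of electrons, and 16 of its 28 tested accessory subunits. They covered all 5 subunits of the F1 head and central stalk of ATP synthase, which make ATP, 3 of 4 of its peripheral stalk and 2 of 3 genes of its proton-carrying c-ring. The c-ring calls include Atp5g2, which met the filter on low values largely through the d21 libraries. Ndufs1 was 35.88, 42.12, 38.88 and 38.08 RPKM in SI clones 1 to 4 at d21 and 26.16, 25.98, 20.81 and 27.28 RPKM at d23. Every d23 library lay below every d21 library, and the feeder libraries lay lower still, at 17.74, 16.22 and 15.97 RPKM. The fall was -0.61 ± 0.11 (log2 difference ± SE, limma, adjusted p = 0.00206). Ndufv1, which holds the flavin site for NADH, fell by 0.46 ± 0.10 (limma, adjusted p = 0.00547).

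Ndufs6, a zinc-binding accessory subunit of complex I, gave 1 of the largest falls. Its values were 20.4, 28.07, 16.33 and 22.81 RPKM at d21 and 9.95, 10.39, 7.88 and 11.64 RPKM at d23, with no overlap. The difference was -1.05 ± 0.17 (limma, adjusted p = 0.00135). Gm20538, which shares 72.7% of its transcript with Ndufb8 in stretches of 50 bases, went from 146.99, 202.98, 128.3 and 151.45 RPKM to 78.67, 82.8, 61.31 and 79.42 RPKM. All 4 later values lay under all 4 earlier ones, and the difference was -1.04 ± 0.16 (limma, adjusted p = 0.00102). How reads were divided between the overlapping entries of Gm20538 and Ndufb8, and whether counting used strand, is not given in the sources used here.

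The single gene that rose was Ndufs5, an accessory subunit of complex I. It was 1.28, 0.86, 3.36 and 0.94 RPKM in SI clones at d21 and 2.12, 3.86, 6.22 and 3.48 RPKM at d23. The value was higher at d23 within each clone, but the groups overlapped, since clone SI3 already had 3.36 RPKM at d21. The difference was 0.94 ± 0.32 (limma, adjusted p = 0.0346), and it missed the threshold with no filter on low values (adjusted p = 0.059), without clone SI2 (adjusted p = 0.167) and in 6 of the 8 fits that left out 1 library. A share of 21.7% of the Ndufs5 transcript is found in other genes in stretches of 50 bases, chiefly BC002163, so reads may be split between them.

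The complex II and III genes of the electron route behaved alike in direction but not in size. Sdha, the flavoprotein of succinate dehydrogenase, was 35.53, 38.88, 44.26 and 38.25 RPKM at d21 and 32.93, 33.1, 34.39 and 33.88 RPKM at d23. The groups did not overlap, and the difference of -0.21 ± 0.10 did not pass (limma, adjusted p = 0.0857, and 0.0173 in the joint fit of all 12 groups). Sdhd went from 50.71, 65.17, 57.17 and 50.73 RPKM to 38.75, 40.7, 41.68 and 40.74 RPKM. It fell by 0.45 ± 0.11 (limma, adjusted p = 0.0074). Cyc1, the cytochrome c1 haem protein of complex III, went from 73.75, 88.97, 93.72 and 75.33 RPKM to 58.07, 62.7, 46.16 and 56.76 RPKM, a fall of 0.56 ± 0.13 (limma, adjusted p = 0.00686). Uqcrc2, a core protein of complex III, went from 69.33, 78.2, 61.14 and 69.1 RPKM to 44.38, 38.86, 38.4 and 48.53 RPKM, a fall of 0.70 ± 0.12 (limma, adjusted p = 0.00152). Uqcrfs1, the Rieske iron-sulfur protein of complex III, fell by 0.68 ± 0.15 (limma, adjusted p = 0.00446). In Sdha, Sdhd, Cyc1 and Uqcrc2 each d23 value lay under each d21 value.

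In complex IV the testis form Cox6b2 changed most. It was 69, 83.78, 17.65 and 52.94 RPKM in SI clones 1 to 4 at d21 and 14.76, 15.65, 10.03 and 13.43 RPKM at d23. Clone SI3 was already low at d21, yet no d23 value reached it. The difference was -1.79 ± 0.42 (limma, adjusted p = 0.00713), and Cox6b2 made up 19.9% ± 8.29 (SD, n = 4) of summed Cox6b1 and Cox6b2 RPKM at d21 and 7.42% ± 1.802 at d23. The common form Cox4i1 went from 210.98, 265.53, 245.93 and 215.37 RPKM to 172.34, 199.27, 185.16 and 184.1 RPKM. These groups did not overlap, but the difference of -0.33 ± 0.12 passed narrowly (limma, adjusted p = 0.038) and missed with no filter on low values (0.0668), after rescaling (0.0856) and without clone SI2 (0.105) or SI3 (0.0607). Cox7a1 was 2.26, 2.19, 0.47 and 1.78 RPKM at d21 and 2.81, 2.56, 1.11 and 4.05 RPKM at d23, higher in all 4 clones. Its difference of 0.44 ± 0.32 did not pass (limma, adjusted p = 0.269) and did with the clone as a block (0.031).

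In complex V, Atp5a1, the non-catalytic alpha subunit of the F1 head, was 211.08, 255.53, 219.17 and 201.54 RPKM at d21 and 136.73, 143.04, 122.29 and 138.46 RPKM at d23. The later values sat at the feeder level of 137.59, 133.98 and 134.05 RPKM. Atp5a1 fell by 0.71 ± 0.12 (limma, adjusted p = 0.0012). Atp5b was 210.77, 247.02, 252.88 and 212.17 RPKM and then 175.6, 184.48, 174.1 and 187.73 RPKM, with no overlap, and fell by 0.35 ± 0.11 (limma, adjusted p = 0.0248). The Atp5b call was lost without clone SI2 (adjusted p = 0.103). Of the c-ring genes, Atp5g3 went from a mean of 85.8 RPKM to 63.1 RPKM and fell by 0.43 ± 0.13 on the log2(RPKM + 1) scale (limma, adjusted p = 0.0181). Atp5g2 went from 1.18 RPKM to 0.613 RPKM and fell by 0.44 ± 0.11 (limma, adjusted p = 0.00864), a value that the added 1 RPKM makes smaller than the ratio of its means. With a d23 mean under 1 RPKM, Atp5g2 met the filter on low values largely through the d21 libraries. Its p-value is therefore no separate support.

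**Figure D3:**
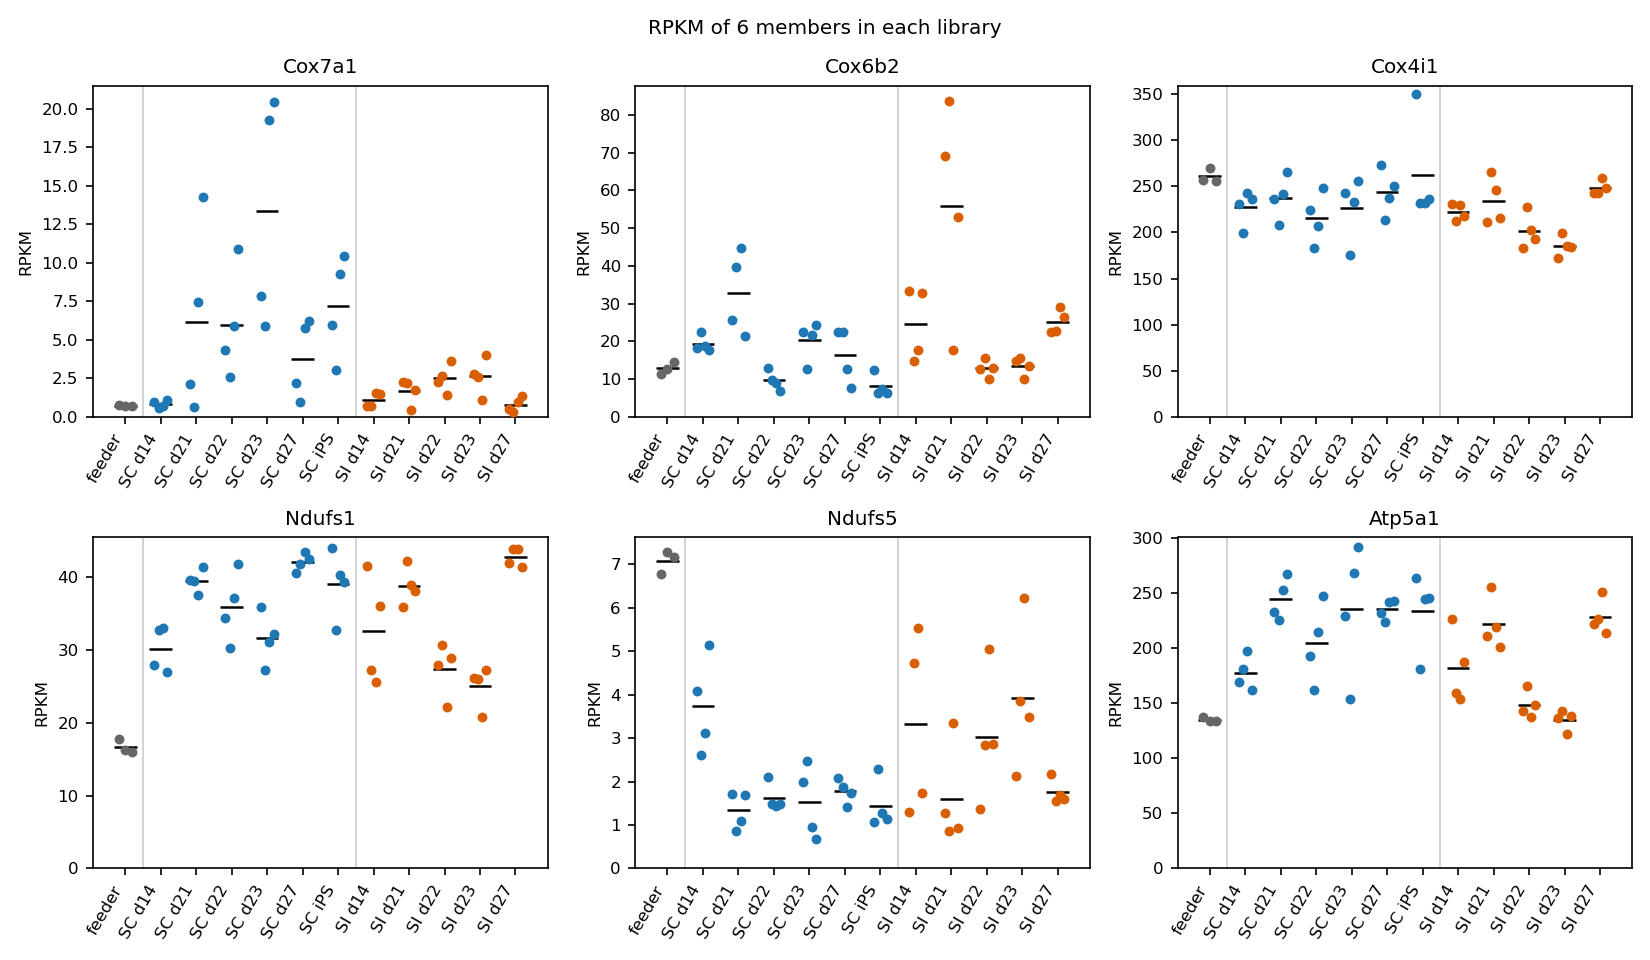
RPKM of Cox7a1, Cox6b2, Cox4i1, Ndufs1, Ndufs5 and Atp5a1 by group, 1 point per library, with group means as bars and linear axes from 0. Atp5a1 in SI clones lies at 201.54 to 255.53 RPKM at d21 and at 122.29 to 143.04 RPKM at d23, and Cox7a1 is above 5 RPKM in all 4 SC libraries at d23.

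The SI count depended on clone SI2, the highest of its group at d21: without it at both times 26 of the genes passed, all lower. Leaving out any single library gave between 38 and 53 calls. Fibroblast markers moved with the result. All 10 of 10 rose in the SI clones between d21 and d23, as did 6 of 7 tested macrophage markers, whose sum went from a mean of 77.3 RPKM (55.91 to 131.26) to 234.1 RPKM (182.24 to 346.32). The feeder libraries, at 9746.8 RPKM of fibroblast and 207.8 RPKM of macrophage markers, also had the low subunit levels given above. No fibroblast marker was below 1 RPKM throughout any group, and the part of these cells in the fall was not tested.

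A single day without doxycycline already gave lower levels. In SI clones at d22, 35 of 80 genes were lower than at d21 and none was higher, against 18.8% of all genes tested that were lower. The share of all genes called higher in this fit is not printed here, so the single direction cannot be read as a trait of these genes. The median was -0.37, beside -0.02 over all genes tested, and the mean level over the 80 changed by -0.35, -0.43, -0.38 and -0.28 in clones 1 to 4. Per complex, 12 of 36, 1 of 4, 7 of 9, 6 of 14 and 9 of 17 genes of complexes I to V fell. With the clone as a block, 54 fell and 2 rose, against 28.8% and 28.5% of all genes tested. Cox6b2 was 12.77, 15.6, 10.05 and 13.07 RPKM at d22 and fell by 1.85 ± 0.42 (limma, adjusted p = 0.0104), Ndufs6 fell by 0.84 ± 0.18 (limma, adjusted p = 0.00809) and Gm20538 by 0.82 ± 0.21 (limma, adjusted p = 0.017). The count went to 11 without clone SI2 at both times, where Cox6b2 missed (adjusted p = 0.0626), and to 18, 21, 22 and 21 without the libraries SI2 d21, SI1 d22, SI4 d21 and SI4 d22.

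In SC clones the same step gave fewer calls. At d22, 5 of 78 genes were lower than at d21 and none was higher, against 4.75% of all genes tested that were lower. Here too the share of all genes called higher is not printed. The 5 were Cox6b2, Cox7a2l, known for its part in supercomplexes of complexes III and IV, Ndufc2 and Ndufb8 of complex I, and Atp5d, the delta subunit of the F1 stalk. Cox6b2 was 25.71, 39.62, 44.79 and 21.33 RPKM at d21 and 12.92, 9.84, 9.12 and 6.91 RPKM at d22. The values did not overlap, and it fell by 1.63 ± 0.26 (limma, adjusted p = 0.0166). Cox7a2l fell by 0.45 ± 0.10 (limma, adjusted p = 0.0414) and Ndufc2 by 0.45 ± 0.09 (limma, adjusted p = 0.0291). With the clone as a block 24 genes fell and 3 rose, against 20.4% and 16.8% of all genes tested. In every clone 55 of the 80 were lower, a count with no share of all genes beside it. The 5 calls went to 0 without clone SC2 at both times or without SC2 or SC3 at d21, and to 1 without SC1 d21, SC1 d22, SC2 d22 or SC3 d22.

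At d23 against d21, none of 78 genes passed in SC clones, against 3.79% of all genes tested that passed. At an unadjusted p under 0.05 there were 12 of the 78, a count with no share of all genes beside it. The median was -0.13, beside -0.07 over all genes tested, and the mean level over the 80 changed by -0.06, -0.24, -0.11 and -0.06 in clones SC1 to SC4. Cox7a1 was 2.15, 0.67, 7.47 and 14.3 RPKM at d21 and 7.84, 5.9, 19.27 and 20.47 RPKM at d23. It was higher in each clone, but the groups overlapped because the clones differed so much at d21. Its difference of 1.32 ± 0.69 did not pass (limma, adjusted p = 0.35). With the clone as a block it was the 1 gene that passed (SE 0.25, adjusted p = 0.0245, against 4.53% of all genes tested that were higher). Without the SC2 library at d23, 1 gene passed and was lower. Ndufb8, the gene with the smallest p, differed by -0.50 (limma, adjusted p = 0.0915).

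**Figure D4:**
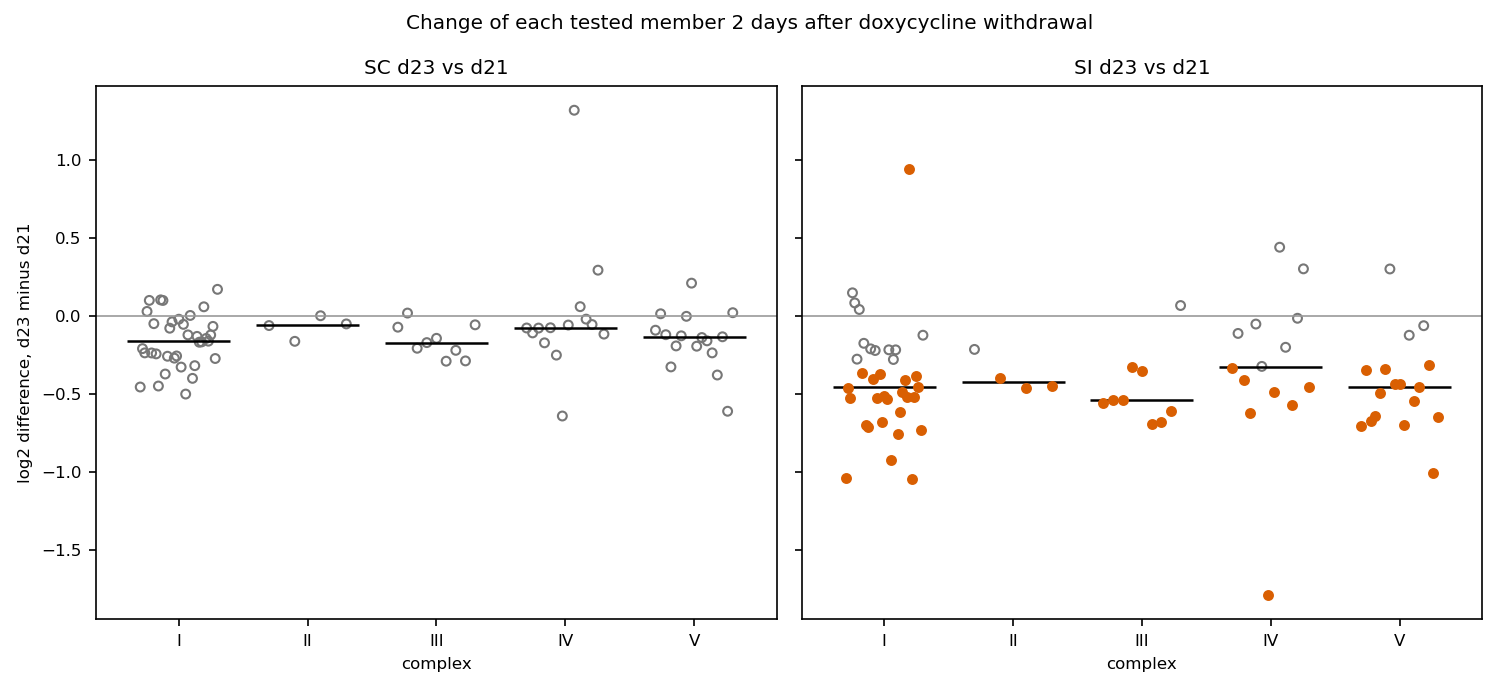
Log2 difference of d23 minus d21 for each gene in SC and in SI clones, by complex, with filled points past the threshold. The SI points centre on a median of -0.45 with 56 filled, and the SC points on -0.13 with none filled.

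Passing in SI and not in SC clones does not show that the changes differed, so the difference of the changes was tested. The d23 minus d21 change was more positive or less negative in SC than in SI clones for 69 of 80 genes, with a median difference of 0.30, beside 0.04 over all genes tested. The count of 69 has no share of all genes beside it. None of the 80 passed, against 0% of all 12714 genes tested, with 14 at an unadjusted p under 0.05. With the clone as a block 11 of the 80 passed, all with the difference in the same direction. That is near the 12.4% of all genes tested that passed in that direction, so the count is no trait of these genes. The share of all genes in the other direction is not printed here. The 11 were Gm20538, Ndufa6, Ndufa7, Ndufb5, Ndufs6, Uqcr10, Atp5a1, Atp5c1, Atp5g2, Atp5h and Atp5sl. In SC clones alone the change of 5 of these 11 was above 0 (Ndufa6, Ndufa7, Uqcr10, Atp5g2 and Atp5sl, none past the threshold). Ndufs6 had a difference of 0.91 (limma, adjusted p = 0.128, and 0.0327 with the block) and Atp5g2, 1 of 3 genes for the c-ring, one of 0.65 (limma, adjusted p = 0.13, and 0.0327 with the block). The count was 14 without clone SC2 at both times, 21 without its d23 library alone and 2 without SI3 d21.

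The second question is where the SC and SI classes differed at the same time. At d23 12 of 79 genes were higher and 1 was lower in SC than in SI clones, against 23% and 19.5% of all genes tested, so the share of subunits called was below that of all genes. The median was 0.27, beside -0.01 over all genes tested, and 65 of the 79 differences were positive, a count with no share of all genes beside it. Complex I gave 4 higher and 1 lower, complex II 1 higher, complex III 1 higher, complex IV 2 higher and complex V 4 higher.

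Cox7a1, the muscle form of subunit 7a, had the largest difference. Its values at d23 were 7.84, 5.9, 19.27 and 20.47 RPKM in SC clones and 2.81, 2.56, 1.11 and 4.05 RPKM in SI clones. The classes did not overlap, and the difference was 1.88 ± 0.42 (limma, adjusted p = 0.023). It made up 16.8% ± 6.96 (SD, n = 4) of summed Cox7a1 and Cox7a2 RPKM in SC clones and 4.79% ± 2.13 in SI clones. Of 11 striated muscle markers 6 stayed below 1 RPKM in every SC library at d23, and their sum was 18.02 to 24.31 RPKM in SC and 23.79 to 30.54 RPKM in SI clones.

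Atp5a1 was 229.01, 153.62, 268.31 and 292.17 RPKM in SC clones at d23, each above all 4 SI values of 122.29 to 143.04 RPKM. The difference was 0.76 ± 0.21 (limma, adjusted p = 0.03). Cyc1 was 91.33, 61.51, 115.96 and 122.01 RPKM in SC clones against 58.07, 62.7, 46.16 and 56.76 RPKM in SI clones, and here SC2 lay inside the SI range. The Cyc1 difference was 0.75 ± 0.23 (limma, adjusted p = 0.0332). Atp5sl, the complex I assembly factor, was 7.54, 4.25, 8.98 and 7.83 RPKM against 3.59, 2.94, 2.02 and 3.88 RPKM, with no overlap and a difference of 0.97 ± 0.23 (limma, adjusted p = 0.0246). Ndufs6 was higher by 0.64 ± 0.19 (limma, adjusted p = 0.0335) and Sdhc, a membrane anchor of complex II, by 0.46 ± 0.15 (limma, adjusted p = 0.0404).

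The 1 lower gene was again Ndufs5, at 1.98, 2.48, 0.95 and 0.68 RPKM in SC and 2.12, 3.86, 6.22 and 3.48 RPKM in SI clones. SC2 lay within the SI range, and the difference was -0.96 ± 0.31 (limma, adjusted p = 0.038). Ndufs5 missed with no filter on low values (adjusted p = 0.0619) and Sdhc with no filter (0.0507) and after rescaling (0.0555). Common subunits such as Sdha (0.30, adjusted p = 0.0706), Sdhb (0.25, adjusted p = 0.152), Uqcrc1 (0.44, adjusted p = 0.0599) and Cox4i1 (0.28, adjusted p = 0.19) differed in the same direction without passing in limma.

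The count at d23 turned on single libraries. Without SC2, whose mean level over the 80 genes was 4.53 and so within the SI range of 4.47 to 4.62, 44 genes were higher and 2 lower. Without SI1, 2 were higher and 1 lower, and without SC1, SC3, SC4, SI2, SI3 or SI4 none passed. The shares of all genes in these fits are not printed here, so the counts cannot be read as a trait of these genes. All 10 fibroblast markers were lower in SC than in SI clones at d23, 5 of 7 tested macrophage markers were lower and all 8 pluripotency markers were higher. Of these 8, 4 were below 1 RPKM in every SI library at d23. Those 4 met the filter on low values through the SC libraries alone, so their direction is no separate support. The part of fibroblast-like cells in the difference was not tested.

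**Figure D5:**
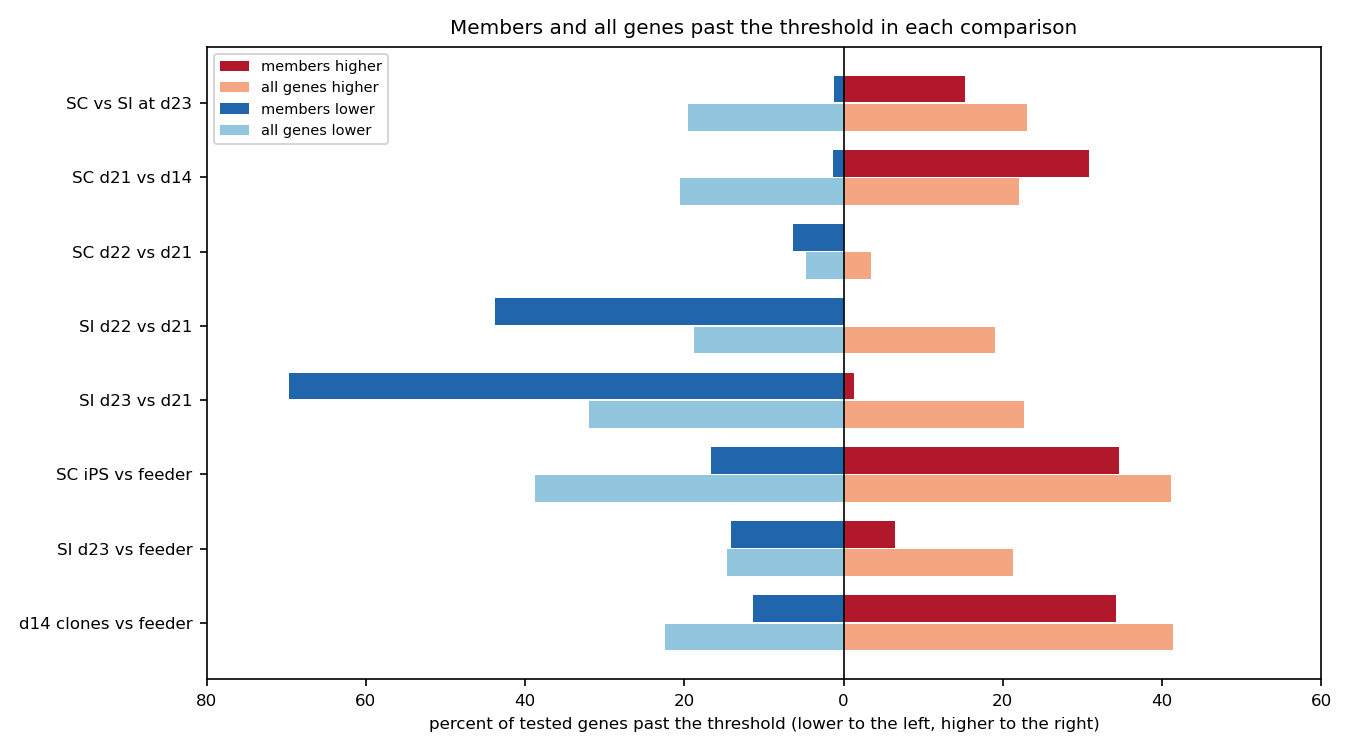
For each comparison, bars give the percent of tested genes called higher (right) and lower (left), for the subunit genes beside all genes tested. In SI clones at d23 against d21 the bar of lower calls is longer for the subunits than for all genes (32%), and at d23 between classes the bar of higher calls is shorter than for all genes (23%).

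At the other times no gene passed between the classes. At d14 none of 77 passed (0% of all genes tested, and 0 of the 77 at an unadjusted p under 0.05), with a median of -0.01. At d21 none of 80 passed (0% of all genes tested, 1 unadjusted), with a median of -0.03. At d22 none of 78 passed (0% of all genes tested, 13 unadjusted), with a median of 0.18, and 17 passed, all higher in SC clones, without SC2. The share of all genes in the fit without SC2 is not printed here. The smallest p at d22 were those of Atp5sl (0.71) and Atp5o (0.44), a stalk subunit of ATP synthase (limma, adjusted p = 0.102 for both). At d27, with doxycycline throughout, none of 80 passed (0.634% of all genes tested, 7 unadjusted), with a median of -0.01, and 5 passed without SC2. The smallest p at d27 were those of Atp5g2 (0.31, limma, adjusted p = 0.09) and Cox7a1 (1.26, limma, adjusted p = 0.152).

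The third comparison follows the clones while doxycycline was present. From d14 to d21 in SC clones 24 of 78 genes were higher and 1 was lower, against 22% and 20.6% of all genes tested. In every clone 50 of the 80 were higher, a count with no share of all genes beside it. The median was 0.25, beside 0.06 over all genes tested. Complex I gave 13 rises and 1 fall, complex II 1 rise, complex III 3, complex IV 2 and complex V 5. The mean level over the 80 genes changed by 0.18, 0.15, 0.20 and 0.40 in clones 1 to 4. The count of 25 went to 14, 13 and 14 without the libraries SC1 d14, SC3 d21 and SC4 d14.

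Ndufa6, an accessory subunit of complex I, was 44.1, 38.48, 40.96 and 43.58 RPKM at d14 and 51.66, 60.85, 75.7 and 72.14 RPKM at d21. The groups did not overlap, and it rose by 0.61 ± 0.13 (limma, adjusted p = 0.00535). Atp5a1 went from 169.71, 181.11, 197.29 and 162.35 RPKM to 233.2, 225.43, 253.09 and 267.32 RPKM, a rise of 0.46 ± 0.11 (limma, adjusted p = 0.00847). Atp5sl rose by 0.63 ± 0.15 (limma, adjusted p = 0.0077). Cox6b2 was 18.38, 22.51, 18.87 and 17.83 RPKM at d14 and, in 2 of 4 clones, near that level at d21 (25.71 and 21.33 RPKM). Its rise of 0.68 ± 0.22 passed (limma, adjusted p = 0.0333) but missed with no filter (0.0558), in the joint fit (0.0907) and without clone SC2 (0.064). Ndufs5 fell, from 4.09, 2.61, 3.13 and 5.15 RPKM to 1.72, 0.87, 1.1 and 1.7 RPKM, by 1.00 ± 0.19 (limma, adjusted p = 0.00319). Fibroblast markers fell over the same step (10 of 10) and so did 6 of 7 tested macrophage markers.

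In SI clones from d14 to d21 none of 80 genes passed (0% of all genes tested, 19 unadjusted), with a median of 0.26 and mean changes over the genes of 0.04, 0.59, 0.18 and 0.08 in clones 1 to 4. The change of 0.59 was that of SI2. The smallest p were those of Ndufa6 (0.84) and Ndufa7 (0.61), both of complex I (limma, adjusted p = 0.246), and without the SI3 library at d21 7 genes passed as higher and 2 as lower.

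At d27 against d21, with doxycycline kept on, almost no gene in the table passed, so the counts say little about the subunits. The mean level over the 80 genes changed by 0.05, 0.04, -0.14 and -0.19 in SC clones 1 to 4 and by -0.04, -0.34, 0.08 and 0.01 in SI clones 1 to 4. In SC clones none of 79 genes passed (0.00847% of all genes tested, 8 unadjusted), and with the clone as a block 3 were lower (Ndufv3, Cox6b2 and Atp5s, against 7.14% of all genes tested). In SI clones none of 80 passed (0% of all genes tested, 11 unadjusted). Without SI3 d21, 7 passed as higher and 13 as lower. The smallest p belonged to Ndufa6 in SC (-0.43, limma, adjusted p = 0.326) and to Ndufv3 (-0.48) and Ndufa6 (-0.75) in SI clones (limma, adjusted p = 0.0929 for both).

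iPS cells, 6 days off doxycycline, were compared with the same SC clones kept on it to d27. None of 79 genes passed (1.62% of all genes tested, 13 unadjusted), and the mean level over the genes changed by -0.05, -0.33, -0.03 and -0.04 in clones SC1 to SC4. The change of SC2 was the largest, and its iPS library had the highest fibroblast marker sum of the 4, at 2054.89 RPKM. The smallest p were those of Ndufb6 (-0.41, limma, adjusted p = 0.0791) and Atp5d (-0.43, limma, adjusted p = 0.0808). With the clone as a block 1 gene passed, Cox7a1 (0.86, against 4.21% of all genes tested that were higher). It was 2.22, 0.96, 5.74 and 6.25 RPKM at d27 and 5.96, 3.05, 9.27 and 10.42 RPKM in iPS cells, higher in every clone with overlapping groups. Without SC2 iPS 2 genes passed and without SC4 d27 5 passed, all 5 lower.

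The fourth comparison sets the clones beside the feeder fibroblasts, and here subunits of the same complex went both ways. In iPS cells 27 of 78 genes were higher and 13 lower than in feeder libraries, against 41.2% and 38.8% of all genes tested. The median was 0.21, beside 0.06 over all genes tested. Complex I gave 9 higher and 6 lower, complex II 1 higher, complex III 3 higher, complex IV 5 higher and 6 lower, and complex V 9 higher and 1 lower. The calls among core subunits of complex I were 4 higher and 0 lower of 7, and among its accessory subunits 5 higher and 6 lower of 28.

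Ndufs1 was 44.01, 32.71, 40.22 and 39.29 RPKM in iPS cells against 17.74, 16.22 and 15.97 RPKM in feeder libraries. The groups lay far apart, and the difference was 1.18 ± 0.11 (limma, adjusted p = 2.63e-05). Cox7a1 was 5.96, 3.05, 9.27 and 10.42 RPKM against 0.77, 0.71 and 0.72 RPKM, a difference of 2.13 ± 0.32 (limma, adjusted p = 0.000271). Its feeder values were all under 1 RPKM, so it met the filter on low values through the iPS libraries alone. Ndufs5 was 1.08, 2.28, 1.27 and 1.14 RPKM against 6.79, 7.29 and 7.18 RPKM, the most negative difference, at -1.75 ± 0.16 (limma, adjusted p = 1.93e-05). Ndufa13, an accessory subunit of complex I, was lower, with a difference of -0.73 ± 0.11 and adjusted p = 0.000264 in limma (22.01, 17.32, 17.49 and 17.93 RPKM against 29.59, 33.33 and 31.87 RPKM).

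At d14 the 8 clones of both classes together already differed from feeder libraries: 27 of 79 genes were higher and 9 lower, against 41.4% and 22.4% of all genes tested, with a median of 0.10 beside 0.12. Rescaling each library by its median ratio moved the median over all genes from 0.12 to -0.02 and turned the split of the subunits to 7 higher and 19 lower, so only relative changes can be read here. Ndufs1 (0.86 ± 0.14, adjusted p = 0.000845), Ndufs6 (0.72 ± 0.17, adjusted p = 0.00456) and Uqcrc2 (0.71 ± 0.12, adjusted p = 0.00111) were the highest, and Ndufs5 (-0.92 ± 0.30, adjusted p = 0.0209) and Ndufa13 (-0.47 ± 0.12, adjusted p = 0.00841) among the lowest in limma. These 5 kept direction and call after rescaling. The count went from 36 to 17, 19 and 21 without feeder libraries 1, 2 and 3.

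SI clones at d23 were nearer to feeder libraries. Of 78 genes 5 were higher and 11 lower, against 21.2% and 14.6% of all genes tested, and the median was -0.06, beside 0.06. After rescaling 4 were higher and 23 lower. Ndufs1 at 26.16, 25.98, 20.81 and 27.28 RPKM stayed above the feeder values by 0.56 ± 0.10 (limma, adjusted p = 0.0107), as did Uqcrc2 by 0.44 ± 0.10 (limma, adjusted p = 0.0171) and Cox7a1 by 1.00 ± 0.26 (limma, adjusted p = 0.027, and 0.145 in the joint fit). Here Cox7a1 met the filter on low values through the SI libraries alone. Cox4i1, at 172.34 to 199.27 RPKM against 257.15, 269.53 and 255.84 RPKM, was lower, with a difference of -0.49 ± 0.08 (limma, adjusted p = 0.00674), and Cox7a2l was lower, with a difference of -0.60 ± 0.09 (limma, adjusted p = 0.00729). The count of 16 went to 7, 34 and 9 without SI1, SI3 and SI4, and to 6, 2 and 2 without feeder libraries 1, 2 and 3.

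Genes that build, feed or regulate the chain were read from other lists over the same fits. In SI clones at d23 against d21, where 32% of all genes tested were lower and 22.7% higher, 9 of 14 complex I assembly factors fell and none rose, among them Ndufaf6 (-0.80, limma, adjusted p = 0.00176). Of 17 complex IV assembly factors 8 fell, of 9 for complexes II and III 4 fell and 2 rose, and of 3 for complex V 1 fell, the last 2 counts being near the share of all genes. Of 16 genes of the tricarboxylic acid cycle and pyruvate dehydrogenase 9 fell, with fumarase Fh1 at -0.98 (limma, adjusted p = 0.000306). Of 47 proteins of the large mitochondrial ribosomal subunit 25 fell and none rose, including Mrpl40 (-0.76, limma, adjusted p = 0.00101). Of 14 genes of electron carriers and ubiquinone synthesis 7 fell and 1 rose, Coq10b (1.34, limma, adjusted p = 0.000218). Of 6 subunits with symbols outside the rule 3 fell.

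Between classes at d23, where 23% of all genes tested were higher in SC clones and 19.5% lower, 20 of 47 ribosomal proteins were higher and none was lower. The counts of the other lists were small and several lay near or below the share of all genes. They were 4 higher of 13 complex I assembly factors, 4 higher and 1 lower of 17 for complex IV, 1 higher of 8 for complexes II and III, 1 lower of 3 for complex V, 4 higher of 16 in the tricarboxylic acid cycle list, 2 higher and 2 lower of 14 carrier genes, and 2 higher of 6 other subunits. The largest single difference among them was that of Cyct, the testis form of cytochrome c, at 4.33 (limma, adjusted p = 0.0221). Cyct was 3.12 to 65.54 RPKM in SC clones at d23 (mean 33.8) and at most 0.39 RPKM in SI clones. With all SI values under 1 RPKM, Cyct met the filter on low values through the SC libraries alone. Its p-value is therefore no separate support. The somatic form Cycs had group means between 0.55 and 1.45 RPKM. Sequence shared with other genes was not examined for Cycs or Cyct, so how far their levels can be set beside each other was not tested. Of 6 germline markers, 1 was tested and was higher in SC clones. The 6 together summed to 4.03 to 68.5 RPKM in SC and 0.58 to 1.71 RPKM in SI clones at d23. The tested marker therefore needed SC libraries to meet the filter on low values, and its call is no separate support.

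Of 16 tested regulators of mitochondrial genes, 11 were higher and 1 lower in SC than in SI clones at d23, against 23% and 19.5% of all genes tested. This count and those of the other lists between classes are given for the full fit only. In that fit the count of subunits turned on single libraries. Tfam, which packages and transcribes mitochondrial DNA, was higher by 0.96 (limma, adjusted p = 0.023), Nrf1 by 0.66 (limma, adjusted p = 0.0273) and Pprc1, a coactivator, by 1.04 (limma, adjusted p = 0.0221). Esrrb, a receptor that is also 1 of the 8 pluripotency markers, differed by 3.91 (limma, adjusted p = 0.019), and Esrra was the 1 lower gene at -0.43 (limma, adjusted p = 0.0362). Of those 8 markers, 4 met the filter on low values at d23 through the SC libraries alone. In SI clones at d23 against d21, 9 of 16 fell and none rose, against 32% and 22.7% of all genes tested, including Tfam (-0.63, limma, adjusted p = 0.00664) and Nrf1 (-0.52, limma, adjusted p = 0.00821). The coactivator Ppargc1a was at most 0.10 RPKM in every library, and Ppargc1b had group means from 0.10 RPKM in feeder libraries to 1.35 RPKM in SI clones at d27.

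Of 9 tested subunits encoded by mitochondrial DNA, none passed between classes at d23 (limma, and 0 at an unadjusted p under 0.05). Of all genes tested there, 23% were higher and 19.5% lower. In SI clones at d23 against d21, 32% of all genes tested were lower and 22.7% higher. Of the mitochondrial subunits only mt-Nd2 (-0.45, adjusted p = 0.0283) and mt-Nd3 (-0.87, adjusted p = 0.0312) fell in limma, a count not above that share. Summed over all 13 mitochondrial genes listed, RPKM was 13109 in SI clones at d21 and 11955 at d23 (group means), against 9156 in feeder libraries. In iPS cells 6 of the 9 tested mitochondrial subunits were higher than in feeder libraries and none was lower, against 41.2% and 38.8% of all genes tested. The columns and kit purify mRNA, and how well they keep mitochondrial transcripts was not tested.

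Sequence shared with other genes was found among both low and abundant members. For the 11 genes under 5 RPKM on average, a median of 11.1% of the transcript was shared with other genes in stretches of 50 bases, with up to 38.3% for Atp5g2, and for the 69 others the median was 0.701%, with up to 72.7% for Gm20538, 41.6% for Atp5o, 31.6% for Ndufb6 and 28.5% for Ndufa13. Cox7c (22.1%), Ndufs3 (17.9%), Ndufa12 (17.7%), Atp5g1 (11.1%) and Atp5l (9.99%) belong to the 11 genes under 5 RPKM. How reads that match several places were counted is not given in the sources used here, and the part of shared sequence in these levels was not tested.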

How the data were processed

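Per the labels' protocols, mRNA was purified on Qiagen columns with DNase treatment, and libraries were made with the Illumina TruSeq kit. The deposited table gives 1 value per gene and library with no named unit. The values are taken as RPKM computed by the authors, because value times gene length, summed over 20750 genes of the GENCODE M21 annotation, came to 0.788 to 0.998 of the sum that RPKM implies. The submitters' processing notes name CASAVA 1.8 and mm9. The sources used here name no aligner, annotation or read length. The labels' treatment text lists 22 and 23 days of doxycycline, and the sample characteristics, which were followed, give 21 days plus 1 or 2 without.

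Differences were tested with limma 3.58.1 (R 4.3.3, lmFit and eBayes with trend) on log2(RPKM + 1), over genes that reached 1 RPKM in as many libraries as the smaller group holds, 2-sided, with Benjamini-Hochberg adjustment over all genes tested and a threshold of 0.05. Only the groups compared entered each fit. Shares of all genes are at the adjusted threshold. Counts at an unadjusted p, by sign, by clone or from fits that left out libraries are given without such a share. The scripts were tested on simulated data with known changes. Python 3.11.15, numpy 2.4.6, pandas 2.3.3 and matplotlib 3.10.9 did the rest. The genes and lists were chosen with earlier results of these data known.

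Named genes were the highest and the 2 most variable of each complex, up to 3 rises and 3 falls per comparison or the 2 smallest p, a list of common and tissue forms, and up to 2 genes per other list. Promoters and their start sites come from RefSeq (GRCm38.p6), not from the build of the table. Clone numbers name the same clone over time. Of 36 pairs of same-numbered libraries within a class, 35 correlated above 0.1 in their deviations from the group means (-0.36 to 0.92), and 29 correlated best with their own number. The fit with the clone as a block is therefore given where it changed a call. Alternatives were a pseudocount of 0.1, no filter, median-ratio rescaling, a joint fit of 12 groups, blocks and leaving out libraries.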

Additional observations from a re-analysis of the deposited data

Results flagged for a closer look

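In 220 sets of 4 libraries (levels of each complex and of the genes described, by group), 1 library lay far from the other 3 in 16. Chance flags about 1 in 20 groups. Of the 16, 5 concerned the iPS library of SC2: complex I stood at 4.27 (others 4.62 to 4.68), complex V at 4.14 (others 4.48 to 4.51) and all 80 genes at 4.48 (others 4.83 to 4.89) on the mean log2 scale, while Atp5b stood at 227 RPKM (others 299.55 to 306.12) and Ndufs5 at 2.28 RPKM (others 1.08 to 1.27).

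The SI2 library at d21 stood above the other 3 SI clones, at 5.10 for complex I (others 4.73 to 4.77), 5.47 for complex II (others 5.15 to 5.20) and 5.19 for all 80 genes (others 4.86 to 4.88). SI1 at d14 was high for complex II, at 5.24 (others 4.99 to 5.02), and for Sdha, at 44.5 RPKM (others 39.34 to 39.84).

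SC1 iPS cells were high for Cox4i1, at 349.9 RPKM (others 231.9 to 235.78), and for Cox6b2, at 12.5 RPKM (others 6.31 to 7.29). Ndufs5 was high in SC1 at d22, at 2.11 RPKM (others 1.44 to 1.49), and in SI3 at d21, at 3.36 RPKM (others 0.86 to 1.28). Atp5sl was low in SC2 at d21, at 4.88 RPKM (others 7.37 to 7.83), and in SI3 at d22, at 2.21 RPKM (others 3.57 to 3.77).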

How the results depend on the processing

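Counts of genes past the threshold depended on how the spread was estimated. In the joint fit of 12 groups they were 11 for SC against SI at d22, 43 at d23, 9 for SC d22 and 7 for SC d23 against d21, 21 for SI d21 against d14, 5 for SI d27 against d21, 6 for the difference of changes, 9 for iPS against d27 and 8 for SI d23 against feeder. With the clone as a replicate block they were 27 for SC d22, 1 for SC d23, 3 for SC d27, 56 for SI d22, 11 for the difference of changes and 1 for iPS against d27, and the block moved no other count by over 1.5 times. Between classes the numbers name different clones (20 pairs, -0.78 to 0.27, 4 above 0.1, 4 best with their own number), and a block on them gave 3 at d23. Rescaling gave 3 for SC d22 and 27 for SI d23 against feeder, and no filter gave 10 for the latter. Added after seeing the data, leaving out clone SC2 gave 0 for SC d22 and 14 for the difference of changes, leaving out SI2 gave 11 for SI d22 and 26 for SI d23, and leaving out SI3 gave 18 for SI d27. Leaving out 1 library gave ranges of 0 to 0 (d14, d21), 0 to 17 (d22), 0 to 46 (d23) and 0 to 5 (d27) between classes, 13 to 32 (d21 against d14), 0 to 7 (d22), 0 to 1 (d23) and 0 to 0 (d27) in SC, 0 to 9, 18 to 41, 38 to 53 and 0 to 20 in SI clones, 0 to 21 for the difference of changes, 0 to 5 for iPS against d27, 29 to 60 for iPS, 2 to 34 for SI d23 and 17 to 38 for d14 against feeder. A check of 48 single-gene differences, which are a part of those named, found no change of direction under any alternative. Causes were not tested, and with depth unknown no limit from it can be given.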
